A study of Mus musculus with 16 samples.

Results

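The radiation response of tumour-bearing mouse lung under PD-1 blockade was read from 5 of the 16 RNA sequencing libraries of the study, the 3 labelled anti-PD-1 with 8 Gy and the 2 labelled anti-PD-1 with 0 Gy, chosen by their titles. All libraries came from lungs of C57BL/6 mice carrying HKP1, a transplanted mouse lung adenocarcinoma line, and each held RNA pooled from 3 to 4 mice. The labels put the harvest at 24 to 48 hours after radiotherapy for every library, the unirradiated ones included. The 5 libraries share the antibody against PD-1. The 6 libraries given control IgG in place of it, 3 at 0 Gy and 3 at 8 Gy, served to show where the response differed. The labels give no antibody dose or schedule, no irradiated field and no age or sex. They also do not say that the pools within a group were independent, and the p-values then reflect only how these pools differ among themselves.

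Ionising radiation breaks DNA and activates p53, the transcription factor that turns on the cell cycle inhibitor p21 and other arrest and death genes. DNA fragments that reach the cytosol can trigger interferon, and interferon signals through STAT transcription factors to raise antiviral and antigen presentation genes. PD-1 is a receptor that restrains T cells when it meets its ligands PD-L1 and PD-L2, both of which interferon can induce on tumour and myeloid cells.

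Levels are in CPM, the count scaled to a common library size, and 1 read was worth 0.01725 to 0.0334 CPM in the 5 libraries. Markers of immune cells (Ptprc), alveolar type 2 cells (Sftpc), club cells (Scgb1a1), blood vessels (Pecam1), fibroblasts (Col1a1) and epithelium (Krt8) were present in all 5, as in mixed lung tissue. None of these marks tumour cells alone, so tumour content was not measured. Haemoglobin transcripts took 0.359 and 0.27% of the listed CPM at 0 Gy and 1.5, 1.4 and 0.706% at 8 Gy, which did not overlap. Mitochondrial transcripts took 1.44 and 3.73% at 0 Gy and 5.54, 3.91 and 1.69% at 8 Gy, which did. The libraries carry running sheet numbers, 16 and 17 at 0 Gy and 34 to 36 at 8 Gy. Should the numbers stand for different preparations, those and the dose cannot be told apart.

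Under anti-PD-1, lungs given 8 Gy carried more RNA of many interferon-induced genes and of both PD-1 ligands than unirradiated lungs, and less of most skeletal muscle genes tested and of 6 of 12 glucocorticoid-induced genes. Calls in macrophage and elastic fibre genes were fewer. Those calls, most interferon and glucocorticoid calls and that of Pdcd1lg2 leaned on single libraries. Those of Cd274 and of most muscle genes held in every fit that left out 1 library. In limma, fitted to log2(CPM + 0.5) over all 16 libraries, 497 of 17546 genes tested (2.83%) passed an adjusted p of 0.05. Of these, 168 rose (0.957% of the genes tested) and 329 fell (1.88%). The median log2 fold change was 1.20 among the risers and -1.25 among the fallers, and -0.06 over all genes tested, with 43.2% of them above 0 and 56.8% below. A change of 2-fold or more was seen in 116 of the risers and 239 of the fallers. The 2 doses did not overlap for any of the 497, which adds no support, since they were called from these same values. Of all genes tested, 17% had every 8 Gy library above both 0 Gy libraries and 24.4% had every one below. Counts within the lists below are to be read against these shares.

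The count leaned on single libraries. It was 179 without 0 Gy replicate 1, 17 without 0 Gy replicate 2, 80 without 8 Gy replicate 1, 195 without 8 Gy replicate 2 and 578 without 8 Gy replicate 3, while all 497 genes kept their sign in 16 alternatives, those 5 fits among them. Since the 2 doses overlapped for none of the 497, the sign could turn only where libraries were rescaled or replicate numbers entered the fit. In the other alternatives, those 5 fits among them, the kept sign adds no support. A fit of the 5 libraries alone called 131 genes, 83 higher and 48 lower, so that falls no longer outnumbered rises. In all 16 alternatives 16 genes stayed called, 5 of them higher (Cdkn1a, Cd274, Ifit3, Tgtp1 and Hk2) and 11 lower (Acta1, Atp2a1, Atp7b, Ckm, Gm27252, Mb, Myh1, Myh8, Myl3, Tnnt3 and Zbtb16). Of these, Myl3 and Gm27252 reached the level needed for testing, 1 CPM in 2 libraries, in the unirradiated anti-PD-1 libraries alone, as did 12 of the 329 fallers in all, so their falls are no independent support.

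**Figure D1:**
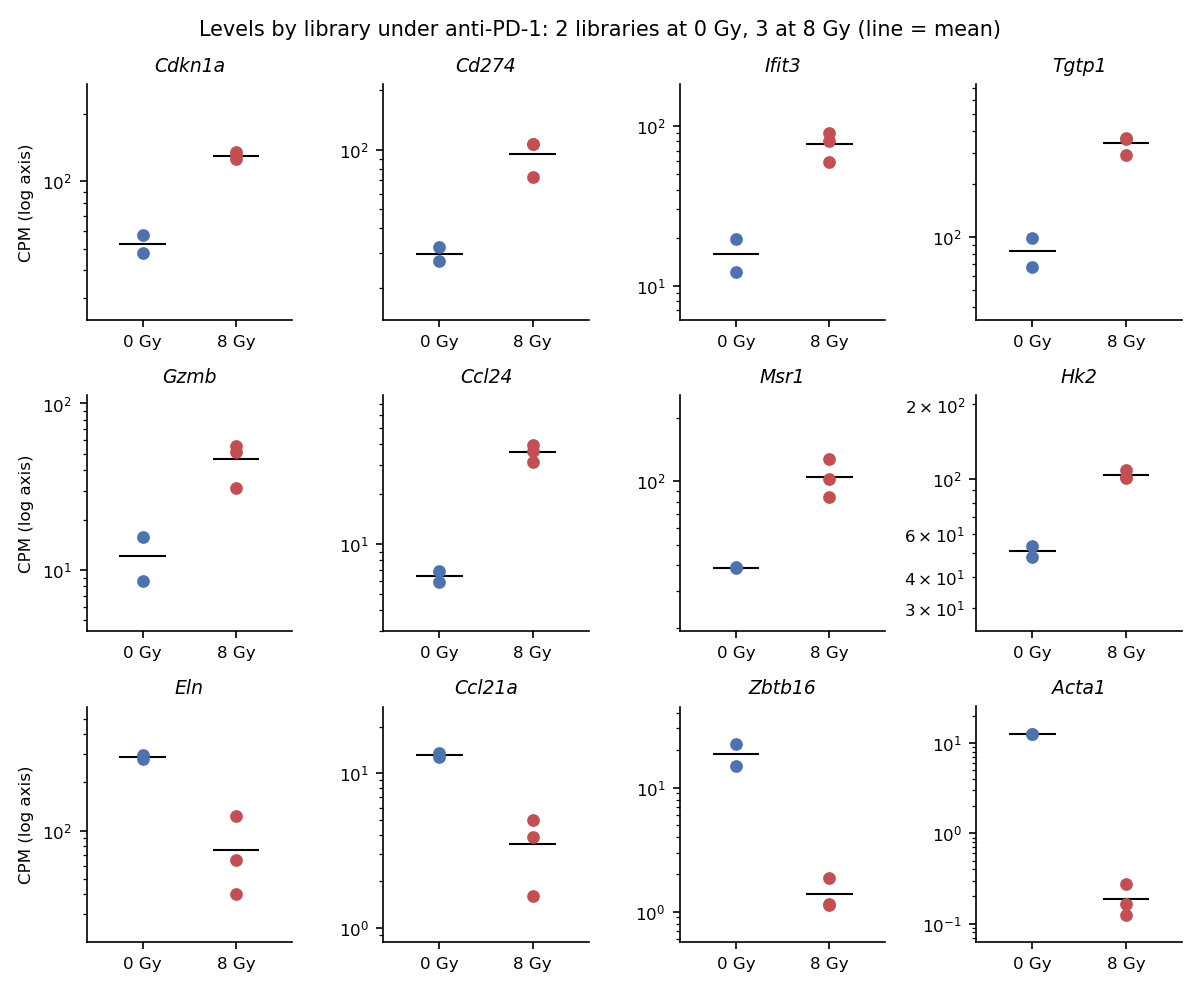
CPM on a log axis for 12 genes in the 2 anti-PD-1 libraries at 0 Gy (blue) and the 3 at 8 Gy (red), with a line at each group mean; the genes were picked after their values were seen. In each panel all 8 Gy points lie on one side of both 0 Gy points, above for Cdkn1a to Hk2 and below for Eln to Acta1.

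Of the p53 target list 12.5% was called, against 2.83% of all genes tested. Of its 32 members tested, which count Trp53 itself, 3 rose and 1 fell, against 0.957% and 1.88% of all genes tested. The list's median log2 fold change was 0.22, against -0.06 over all genes. Cdkn1a, which encodes p21 (mm10, chromosome 17, 29090976 to 29100727, plus strand), stood at 47.6 and 57.6 CPM at 0 Gy and at 125, 136 and 130 CPM at 8 Gy. The 8 Gy libraries sat close together and well above both controls. The rise was 1.31 ± 0.19 on the log2 scale (SE, limma adjusted p = 0.00384). Phlda3, an inhibitor of AKT signalling, rose from 22.1 and 16.9 CPM to 33.5, 37.1 and 38.3 CPM (0.89 ± 0.18, adjusted p = 0.02). Ccng1, which encodes cyclin G1, rose from 49.0 and 54.6 CPM to 107, 90.7 and 78.7 CPM (0.82 ± 0.17, adjusted p = 0.0202). Both separated the doses without overlap.

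The member that fell was Ddb2, a sensor of DNA lesions in nucleotide excision repair, from 35.8 and 37.3 CPM to 11.1, 17.6 and 21.4 CPM (-1.16 ± 0.27, adjusted p = 0.0373). Mdm2, the ubiquitin ligase that degrades p53, had a log2 difference of 0.30 (adjusted p = 0.408) and Trp53, which encodes p53 itself, one of 0.18 (adjusted p = 0.724). Gdf15, a stress-induced secreted factor, was listed at 0.434 and 0.665 CPM at 0 Gy and 1.59, 2.45 and 3.43 CPM at 8 Gy, and missed the threshold (1.47 ± 0.38, adjusted p = 0.0523). Cdkn1a passed in every fit that left out 1 library. The calls of Phlda3, Ccng1 and Ddb2 did not hold without 0 Gy replicate 2 (adjusted p = 0.296, 0.167 and 0.296), nor without 8 Gy replicate 1 (0.0659, 0.108 and 0.157) or 8 Gy replicate 2 (0.0657, 0.0619 and 0.0786), and those of Ccng1 and Ddb2 did not hold without 0 Gy replicate 1 (0.119 and 0.127).

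Genes of the cell cycle gave no call. Among 26 mitosis genes none passed, 13 lay above 0 and 13 below, and the median was 0.02. Mki67, the proliferation marker, stood at 265 and 305 CPM at 0 Gy and at 285, 313 and 310 CPM at 8 Gy (0.09 ± 0.16, adjusted p = 0.830), with overlapping groups. Of 24 DNA replication genes and 22 double-strand break repair genes, none passed, with medians of 0.10 and 0.08.

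Interferon-stimulated genes lay higher throughout. Out of 32 type I interferon response genes 18 went up and none fell, all 32 lay above 0 (43.2% of all genes tested did), and the median log2 fold change was 1.24. In 31 of the 32 every 8 Gy library lay above both 0 Gy libraries, as in 17% of all genes tested. Rsad2, which encodes the antiviral enzyme viperin, rose from 2.64 and 5.17 CPM to 31.9, 22 and 19 CPM (2.52 ± 0.44, adjusted p = 0.0100). Isg15, a ubiquitin-like modifier, rose from 7.48 and 8.29 CPM to 53.7, 38.4 and 32.9 CPM (2.30 ± 0.39, adjusted p = 0.00955). Ifit3, of a family that binds foreign RNA or its partners, rose from 12.1 and 19.5 CPM to 90.9, 79.9 and 59.4 CPM (2.26 ± 0.33, adjusted p = 0.00436). In all 3 genes replicate 1 at 8 Gy was the highest library and replicate 3 the lowest, and replicate 3 still stood clear of both controls.

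Other members that rose were Ifit1 at 2.15, the 2′-5′ oligoadenylate synthetase gene Oas3 at 1.53 and Usp18, which removes ISG15 from proteins, at 1.39. Members that missed the threshold included Irf7 at 1.32, Mx1 at 0.91, Stat2 at 0.28 and Irf9 at 0.21. Among 15 genes of cytosolic DNA sensing 3 rose, namely Trex1, a DNA exonuclease (1.15), Ifi204, a DNA-binding sensor (0.86), and Zbp1, a sensor of left-handed nucleic acid (1.79), which the interferon list also holds. The sensor gene Cgas had a log2 difference of 0.53 and its adaptor Tmem173, which encodes STING, one of 0.30, and neither passed. No gene of this sensing list was called without 0 Gy replicate 1 or 2 or 8 Gy replicate 1 or 2, and 6 were without 8 Gy replicate 3. Of the 32 interferon genes, 4 were called without 0 Gy replicate 1, 1 without 0 Gy replicate 2, 6 without 8 Gy replicate 1, 10 without 8 Gy replicate 2 and 19 without 8 Gy replicate 3. The median stayed between 1.20 and 1.37 over all alternatives.

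The interferon-inducible GTPases, which attack the vacuoles of intracellular pathogens, followed the same direction. All 18 members tested lay above 0 with no overlap between groups, 8 rose, and the median was 1.62. Over all genes tested 43.2% lay above 0, 17% separated the doses upward and 0.957% rose. Tgtp1 had the lowest p of any riser. It stood at 98.3 and 67.1 CPM at 0 Gy and at 367, 358 and 294 CPM at 8 Gy (2.05 ± 0.22, adjusted p = 0.000866), and it has a near-identical copy, Tgtp2, that can share its reads (1.80). Irgm1, a regulator of these GTPases, rose from 130 and 124 CPM to 344, 355 and 279 CPM (1.35 ± 0.23, adjusted p = 0.0100). Iigp1 rose from 138 and 94.9 CPM to 545, 620 and 379 CPM (2.13 ± 0.37, adjusted p = 0.0103), and Gbp5, a guanylate-binding protein linked to inflammasome activity, from 28.9 and 20.5 CPM to 128, 154 and 73.0 CPM (2.19 ± 0.48, adjusted p = 0.0293). For these the highest library was replicate 1 or 2 and the lowest irradiated library was replicate 3. Left-out libraries moved the 8 calls to 5 without 0 Gy replicate 1, 1 without 0 Gy replicate 2, 2 without 8 Gy replicate 1, 4 without 8 Gy replicate 2 and 9 without 8 Gy replicate 3.

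Because these genes moved together, the sequence before their start was read. Promoters of RefSeq genes (250 bases before to 50 after the start, GRCm38.p6) were searched on both strands for GAAA, any 2 bases and GAAA again, the core letters of the element bound by interferon regulatory factors. It was found in 14 of the 23 type I interferon genes with a promoter in the table (60.9%) and in 10 of 10 GTPases (100%). Over all genes that rose it was in 27 of 116 (23.3%), over all that fell in 5 of 228 (2.19%) and over all genes tested in 467 of 11924 (3.92%). A second pattern, TTCNNNGAA, the core of the STAT element, which can overlap the first, was in 17 of the 116 risers (14.7%), 24 of the 228 fallers (10.5%) and 8.45% of all genes tested. A match is a run of letters and not evidence of binding. The 4 promoters below are shown because they carry the first pattern, in capitals (read along either strand), in genes that rose at 8 Gy. They are Ifit3 (chr19:34583279-34583578, plus strand, 2 matches), Isg15 (chr4:156200769-156201068, minus strand, 3 overlapping matches), Tgtp1 (chr11:48992197-48992496, minus strand, 1 match) and Irgm1 (chr11:48871371-48871670, minus strand, 2 overlapping matches), each written 5′ to 3′ along the gene's strand.
Ifit3: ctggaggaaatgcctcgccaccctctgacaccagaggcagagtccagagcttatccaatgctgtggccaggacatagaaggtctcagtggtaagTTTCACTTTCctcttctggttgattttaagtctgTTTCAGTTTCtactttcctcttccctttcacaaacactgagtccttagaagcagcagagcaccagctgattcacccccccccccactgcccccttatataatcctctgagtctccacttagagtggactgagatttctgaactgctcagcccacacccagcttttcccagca
Isg15: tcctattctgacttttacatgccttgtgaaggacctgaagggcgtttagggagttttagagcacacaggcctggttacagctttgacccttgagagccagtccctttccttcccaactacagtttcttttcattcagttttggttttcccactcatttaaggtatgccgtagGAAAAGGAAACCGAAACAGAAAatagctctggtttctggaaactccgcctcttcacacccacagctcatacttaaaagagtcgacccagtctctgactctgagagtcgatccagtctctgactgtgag
Tgtp1: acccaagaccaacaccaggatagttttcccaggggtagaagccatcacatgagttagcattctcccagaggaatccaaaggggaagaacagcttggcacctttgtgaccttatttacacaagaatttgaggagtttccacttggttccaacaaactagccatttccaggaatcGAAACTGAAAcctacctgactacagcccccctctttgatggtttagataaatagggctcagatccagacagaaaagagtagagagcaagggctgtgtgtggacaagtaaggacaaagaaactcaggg
Irgm1: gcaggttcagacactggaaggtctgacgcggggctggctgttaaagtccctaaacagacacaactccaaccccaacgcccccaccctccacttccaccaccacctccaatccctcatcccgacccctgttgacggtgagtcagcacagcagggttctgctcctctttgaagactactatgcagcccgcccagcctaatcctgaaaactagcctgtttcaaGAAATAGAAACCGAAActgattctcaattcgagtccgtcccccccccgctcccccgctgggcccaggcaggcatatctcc
The matches begin 156 and 122 bases before the start in Ifit3, 78, 72 and 66 in Isg15, 77 in Tgtp1 and 30 and 24 in Irgm1. No match was found in the windows of Cd274, Cdkn1a and Xaf1, although Xaf1, an interferon-induced apoptosis gene, rose by 1.22.

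Both PD-1 ligands rose. Cd274, which encodes PD-L1 (mm10, chromosome 19, 29367455 to 29388095, plus strand), stood at 27.5 and 32.3 CPM at 0 Gy and at 106, 106 and 73.1 CPM at 8 Gy. Even the lowest irradiated library was above both controls by more than they differed from each other, and the log2 fold change was 1.64 ± 0.20 (adjusted p = 0.00138). Pdcd1lg2, which encodes PD-L2, rose from 4.78 and 3.18 CPM to 17, 19.6 and 10.2 CPM (1.82 ± 0.30, adjusted p = 0.00903). The receptor gene Pdcd1 was at 65.0 and 23.4 CPM at 0 Gy and at 33.6, 51.9 and 23.6 CPM at 8 Gy, which overlapped (-0.17 ± 0.48, adjusted p = 0.891). These were the only calls among 20 checkpoint and regulatory T cell genes. Foxp3, the factor that defines regulatory T cells, had a log2 difference of 0.23 and Ctla4 one of -0.67. Cd274 passed in every fit that left out 1 library, while Pdcd1lg2 did not pass without 0 Gy replicate 2 (adjusted p = 0.167).

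Cytotoxic effector genes lay higher. Of 21 tested, 19 lay above 0 (43.2% of all genes tested did) and the median was 0.74. As calls, 2 rose (9.52%), against 0.957% of all genes tested. Gzmb, which encodes the killer protease granzyme B, rose from 15.8 and 8.57 CPM to 55.8, 51.4 and 31.1 CPM (1.89 ± 0.38, adjusted p = 0.0190), and Gzmc, another granzyme gene, from 0.167 and 0.213 CPM to 3.30, 2.04 and 2.20 CPM (2.10 ± 0.36, adjusted p = 0.00975). Ifng, which encodes interferon gamma, was at 2.19 and 1.47 CPM at 0 Gy and at 11.6, 12.1 and 3.85 CPM at 8 Gy and missed the threshold, with 8 Gy replicate 3 far below the other irradiated libraries (1.92 ± 0.64, adjusted p = 0.121). Prf1, which encodes perforin, missed it too (1.48, adjusted p = 0.0829). None of 25 genes of the T cell receptor complex and helper cells passed (median 0.38, 23 above 0), and Cd8a had a difference of 0.36. In bulk tissue a change in the number of cells of a type and a change in RNA per cell cannot be told apart. Neither granzyme call held without 0 Gy replicate 2 (adjusted p = 0.296 for Gzmb and 0.134 for Gzmc) or 8 Gy replicate 1 (0.0958 and 0.0513), that of Gzmb did not hold without 8 Gy replicate 2 (0.0657), and that of Gzmc did not without 0 Gy replicate 1 (0.0553).

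Antigen presentation genes were mostly above 0 and uncalled. Of 21 MHC class I and peptide loading genes, 18 lay above 0 with a median of 0.53, and the immunoproteasome subunit gene Psmb10 stood highest at 0.97. Of 11 MHC class II genes, 9 lay above 0 with a median of 0.40, and Ciita, their master regulator, had a difference of 1.34 without passing.

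Monocyte and macrophage genes rose in part. Of 22, 5 rose, none fell, and 18 lay above 0 with a median of 0.85. Msr1, a scavenger receptor, stood at 38.7 and 39.0 CPM at 0 Gy and at 128, 102 and 84.0 CPM at 8 Gy (1.40 ± 0.25, adjusted p = 0.0108). The controls were all but equal, and every irradiated library was above them. Csf1r, the receptor that keeps macrophages alive, rose from 177 and 155 CPM to 317, 305 and 267 CPM (0.84 ± 0.18, adjusted p = 0.0247). The other risers were the Fc receptor genes Fcgr1 (1.34) and Fcgr4 (0.90) and the inflammatory monocyte marker Ly6c2 (1.30). Spp1, Vcan, Mrc1 and Cd14 lay below 0, from -0.23 to -0.69, and none of 13 alveolar macrophage genes passed (9 below 0, median -0.39). Of 13 genes of alternatively activated macrophages 2 rose, Arg1 and Ccl24, while 7 lay below 0 and the median was -0.22, or 0.07 at the highest alternative. None of the 13 was called without 0 Gy replicate 2, and 1 was in each of the other 4 fits that left out 1 library. The 5 calls became 1 without 0 Gy replicate 1, 0 without 0 Gy replicate 2, 1 without 8 Gy replicate 1, 3 without 8 Gy replicate 2 and 6 without 8 Gy replicate 3.

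Of 14 genes of suppressive myeloid cells 3 rose, 1 of them Cd274, while 4 lay below 0 and the median was 0.54. Acod1, the macrophage enzyme that makes itaconate, rose from 4.78 and 5.49 CPM to 43.9, 45.1 and 18.8 CPM (2.60 ± 0.48, adjusted p = 0.0132), the largest rise among the genes named by rule. Arg1, the arginine-degrading enzyme arginase 1, rose from 128 and 86.1 CPM to 345, 275 and 365 CPM (1.63 ± 0.41, adjusted p = 0.0489). Nos2 (2.10) and Ido1 (2.04), whose products also consume amino acids, did not pass. The call of Arg1 was lost in each of the 5 fits that left out 1 library (adjusted p = 0.0858 to 0.413), and that of Acod1 without 0 Gy replicate 1 (0.0744), 0 Gy replicate 2 (0.155) or 8 Gy replicate 1 (0.0660).

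Of 32 chemokine genes 4 rose and 1 fell, with a median of 0.48. Ccl24, an attractant of eosinophils, rose from 5.95 and 6.89 CPM to 36.6, 39.4 and 31.1 CPM (2.38 ± 0.37, adjusted p = 0.00654). Cxcl11, an interferon-induced ligand of the T cell receptor CXCR3, rose from 1.30 and 1.6 CPM to 10.3, 9.27 and 4.59 CPM (2.06 ± 0.41, adjusted p = 0.0179). Cxcl10, a ligand of the same receptor, had a larger difference but a wide spread, at 68.5 and 27.6 CPM against 242, 432 and 240 CPM (2.73 ± 0.70, adjusted p = 0.0513). Ccl3, a macrophage inflammatory protein gene, rose by 2.08 and the monocyte attractant Ccl12 by 1.13. Of the cytokine genes, Csf2, which encodes GM-CSF, rose by 1.31, and Csf3, which encodes the neutrophil growth factor G-CSF, fell from 6.88 and 3.50 CPM to 0.380, 0.653 and 1.28 CPM (-2.16 ± 0.40, adjusted p = 0.0144). Il6 and Tnf did not pass (-0.48 and 1.31). The call of Csf2 was lost without 0 Gy replicate 1 (0.0951), 0 Gy replicate 2 (0.262), 8 Gy replicate 2 (0.0809) or 8 Gy replicate 3 (0.0606), and that of Csf3 without 0 Gy replicate 1 (0.112), 0 Gy replicate 2 (0.0849) or 8 Gy replicate 1 (0.0752), all adjusted p. The chemokine calls numbered 4 without 0 Gy replicate 1, 0 without 0 Gy replicate 2, 2 without 8 Gy replicate 1 or 2, and 6 without 8 Gy replicate 3.

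The neutrophil list did not move one way, with 1 of 13 tested members higher, 2 lower and a median of -0.17 that ran from -1.10 to 0.44 over the alternatives. Mmp8, the neutrophil collagenase, was at 21.7 and 66.2 CPM at 0 Gy and at 5.16, 4.84 and 8.41 CPM at 8 Gy (-2.58 ± 0.43, adjusted p = 0.00936). Retnlg, a resistin-like gene of mature neutrophils, fell from 28.1 and 81.3 CPM to 12.4, 12.5 and 12.4 CPM (-1.90 ± 0.41, adjusted p = 0.0248). Both were about as low in all 3 irradiated libraries, and 0 Gy replicate 2 was far the highest. Without that library the adjusted p was 0.168 for Mmp8 and 0.374 for Retnlg, and Retnlg also missed the threshold without 8 Gy replicate 1 (0.0946) or replicate 2 (0.0671). Prtn3, a protease of immature granulocytes, was higher (1.56, adjusted p = 0.0466), a call lost in each fit that left out 1 library (adjusted p = 0.0798 to 0.230).

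**Figure D2:**
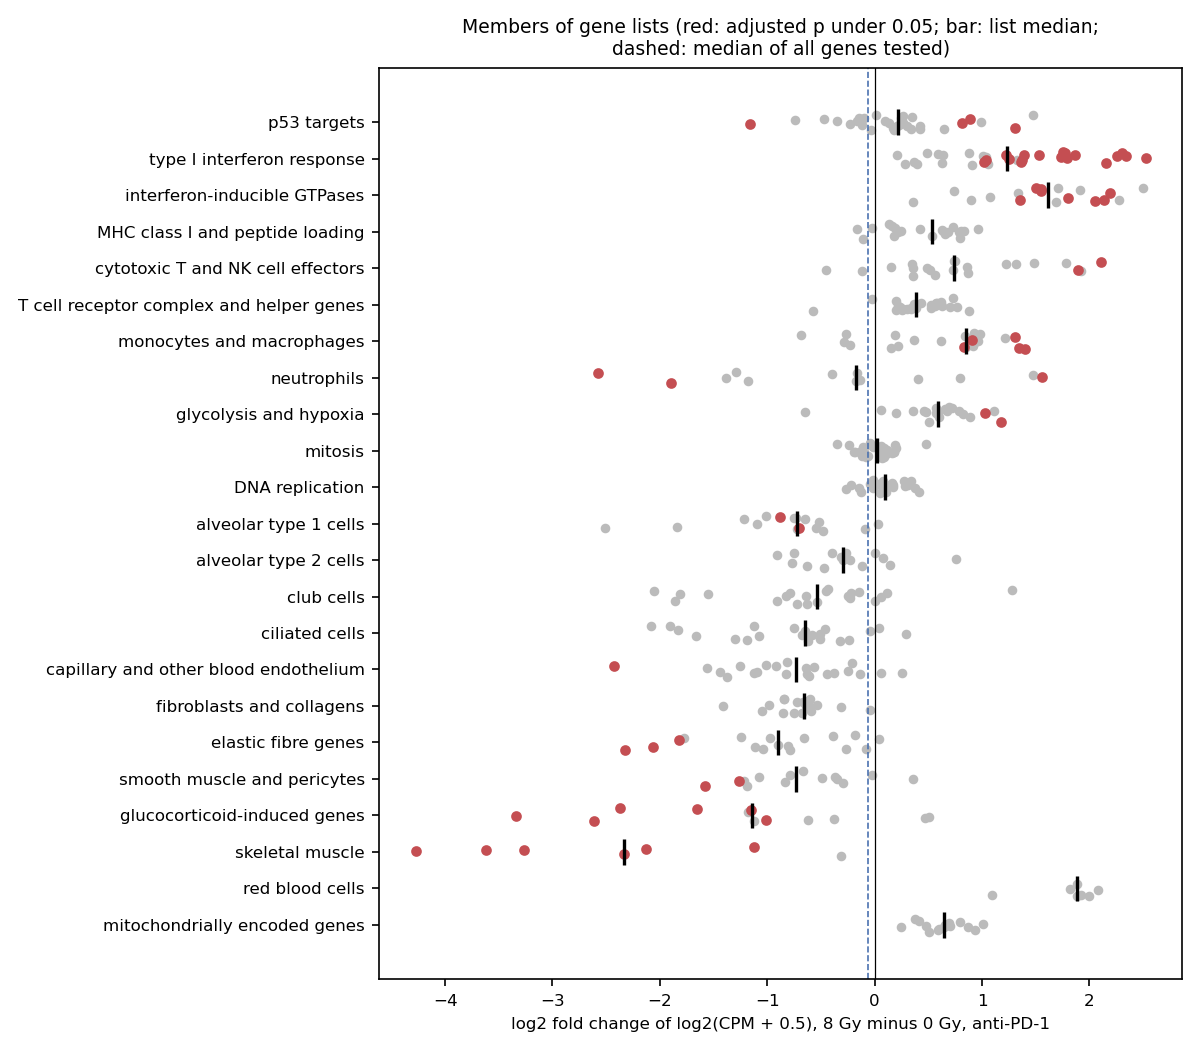
Log2 fold change (8 Gy minus 0 Gy, anti-PD-1, on the log2(CPM + 0.5) scale) of the members of 23 gene lists, with 1 point per gene, red where the adjusted p is under 0.05, a black bar at the list median and a dashed line at the median of all genes tested. Interferon and GTPase lists lie to the right of 0, matrix, lung cell, glucocorticoid and muscle lists to the left, and the mitosis and replication lists sit at 0.

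Genes of the lung's own structure lay lower, with calls in few of them. All 20 fibroblast and collagen genes lay below 0 with a median of -0.65 and none passed. The elastic fibre list, which holds the scaffold that lets lung recoil, had 16 of 17 members below 0, 3 falls and a median of -0.90. Eln, which encodes elastin, stood at 298 and 279 CPM at 0 Gy and at 40.1, 123 and 65.5 CPM at 8 Gy (-2.06 ± 0.47, adjusted p = 0.0337). Lox, the enzyme that crosslinks elastin and collagen, fell from 30.3 and 31.2 CPM to 4.50, 7.004 and 6.02 CPM (-2.32 ± 0.45, adjusted p = 0.0166), and Mfap5, a microfibril protein gene, from 9.32 and 9.03 CPM to 1.35, 3.94 and 2.03 CPM (-1.82 ± 0.34, adjusted p = 0.0145). The unirradiated libraries were nearly equal in all 3 genes, and the irradiated ones were all lower but spread more widely. No elastic fibre gene was called without 0 Gy replicate 1, 0 Gy replicate 2 or 8 Gy replicate 1, and 3 were called without 8 Gy replicate 2 or 3.

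Vessel-associated genes followed. Of 22 blood endothelial genes 20 lay below 0 with a median of -0.73, and 1 fell, Gpihbp1, which anchors lipoprotein lipase on capillaries, from 16.6 and 29.7 CPM to 2.81, 4.55 and 4.02 CPM (-2.43 ± 0.51, adjusted p = 0.0222). Ccl21a, the lymphatic chemokine that guides CCR7-bearing cells, fell from 12.8 and 13.5 CPM to 1.61, 3.87 and 5.00 CPM (-1.88 ± 0.32, adjusted p = 0.0100), and it has near-identical copies. Among pericyte genes Cspg4 fell by 1.58 and Pdgfrb by 1.27. All 4 calls were lost without 0 Gy replicate 1 (adjusted p = 0.0515 to 0.104) and without 0 Gy replicate 2 (0.155 to 0.296), those of Gpihbp1, Cspg4 and Pdgfrb without 8 Gy replicate 1 (0.107, 0.0632 and 0.138), and those of Gpihbp1 and Pdgfrb without 8 Gy replicate 2 (0.0508 and 0.0661).

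Epithelial lists lay below 0 without a pattern of calls. Of 16 alveolar type 1 genes 15 lay below 0 (median -0.73) and 2 fell, Pdpn, a membrane protein of these flat cells and of lymphatics (-0.88), and Lmo7 (-0.70). Col4a3, a basement membrane collagen gene, was at 9.95 and 25.1 CPM against 0.640, 5.27 and 3.10 CPM and missed the threshold (-2.51 ± 0.64, adjusted p = 0.0522). None of 22 ciliated cell genes (median -0.64), 21 club cell genes (-0.54) or 15 alveolar type 2 genes (-0.29) passed, and the club and alveolar type 2 medians reached 0.06 at the highest alternative. Scgb1a1, the secretoglobin that marks club cells and that the study's title names, was at 2092 and 3778 CPM at 0 Gy and at 701, 3891 and 2199 CPM at 8 Gy, with wide overlap (-0.63 ± 0.64, adjusted p = 0.651). Replicate 1 at 8 Gy was the lowest library in these lists, with a mean log2 level of 1.15 for ciliated genes against 2.79 and 2.33 in the other irradiated libraries. Without it the difference of Scgb1a1 was 0.06. Neither alveolar type 1 call held without 0 Gy replicate 1 (adjusted p = 0.205 for Pdpn, 0.0892 for Lmo7), 0 Gy replicate 2 (0.155, 0.410) or 8 Gy replicate 1 (0.157, 0.199), nor Lmo7 without 8 Gy replicate 2 (0.123) or Pdpn without 8 Gy replicate 3 (0.0556).

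The steepest falls were in skeletal muscle genes. Of 7 tested members of 11 listed, 6 fell and the median was -2.34. Acta1, skeletal muscle actin, stood at 12.8 and 12.7 CPM at 0 Gy and at 0.124, 0.167 and 0.272 CPM at 8 Gy (-4.27 ± 0.44, adjusted p = 0.000866). Tnnt3, fast troponin T, fell from 7.25 and 9.11 CPM to 0.431, 0.472 and 0.298 CPM (-3.27 ± 0.36, adjusted p = 0.000866). Atp2a1, the calcium pump of fast fibres, fell from 5.17 and 4.62 CPM to 0.648, 0.472 and 0.589 CPM (-2.34 ± 0.20, adjusted p = 0.000230), the lowest p among the named genes. Myh1, a fast myosin, was at 1.41 and 2.10 CPM at 0 Gy and at no reads, no reads and 0.0299 CPM at 8 Gy. These are low levels, and all 3 irradiated libraries were far below both controls.

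Heart muscle genes gave no call: none of 8 tested passed, and their median was -0.37. Myh6, a heart myosin gene, stood at 0.467 and 0.829 CPM against 0.236, 0.580 and 0.271 CPM. The mean log2 level of the skeletal muscle list was 2.68 and 2.73 at 0 Gy with anti-PD-1, 0.22, 0.23 and 0.36 at 8 Gy with anti-PD-1, and 1.27, 1.11 and 1.47 at 0 Gy with IgG. At 4 Gy with anti-PD-1 it was 0.51, 1.22 and 0.67. The summed level of the tested muscle genes was 49.1 and 49.8 CPM in the unirradiated anti-PD-1 libraries and 10.02 to 13.4 CPM in the irradiated ones, and the part of these genes in the other results was not tested. Muscle calls numbered 5 or 6 in each fit that left out 1 library.

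Glucocorticoid-induced genes fell as well. Of 12, 6 fell, none rose, 10 lay below 0, and the median was -1.14. Zbtb16, a transcription factor gene strongly induced by glucocorticoids, stood at 14.8 and 22.5 CPM at 0 Gy and at 1.16, 1.87 and 1.13 CPM at 8 Gy (-3.34 ± 0.40, adjusted p = 0.00138). Fkbp5, a cochaperone of the glucocorticoid receptor, fell from 215 and 255 CPM to 104, 96.1 and 116 CPM (-1.15 ± 0.16, adjusted p = 0.00384). Per1, a clock gene that glucocorticoids also induce, fell from 132 and 152 CPM to 28.6, 44.6 and 69.0 CPM (-1.66 ± 0.31, adjusted p = 0.0137). Both controls were above all irradiated libraries in each of the 3.

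Others of the list that fell were Hif3a (-2.62), Pdk4, which shuts off pyruvate oxidation (-2.37), and Klf9 (-1.01). Tsc22d3, which encodes the glucocorticoid-induced leucine zipper, stood at 206 and 241 CPM against 78.8, 108 and 124 CPM and missed the threshold (-1.13 ± 0.30, adjusted p = 0.0570). The metallothionein genes Mt1 and Mt2 lay above 0 (0.51 and 0.47). With IgG, the unirradiated libraries were at 1.88, 1.18 and 4.52 CPM for Zbtb16 and at 96.5, 138 and 106 CPM for Fkbp5, near the irradiated anti-PD-1 libraries and below the unirradiated ones. The list's mean log2 level was 5.24 and 5.70 in the unirradiated anti-PD-1 libraries, 4.07, 4.25 and 4.47 at 8 Gy with anti-PD-1, 4.20, 4.68 and 4.39 at 0 Gy with IgG and 4.28, 4.20 and 4.25 at 8 Gy with IgG. So the 2 unirradiated anti-PD-1 libraries stood apart from the other 3 groups in this list, as they did in the muscle list. Of the 6 calls 5 were made without 0 Gy replicate 1, 1 without 0 Gy replicate 2, 3 without 8 Gy replicate 1 and 5 without 8 Gy replicate 2 or 3.

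**Figure D3:**
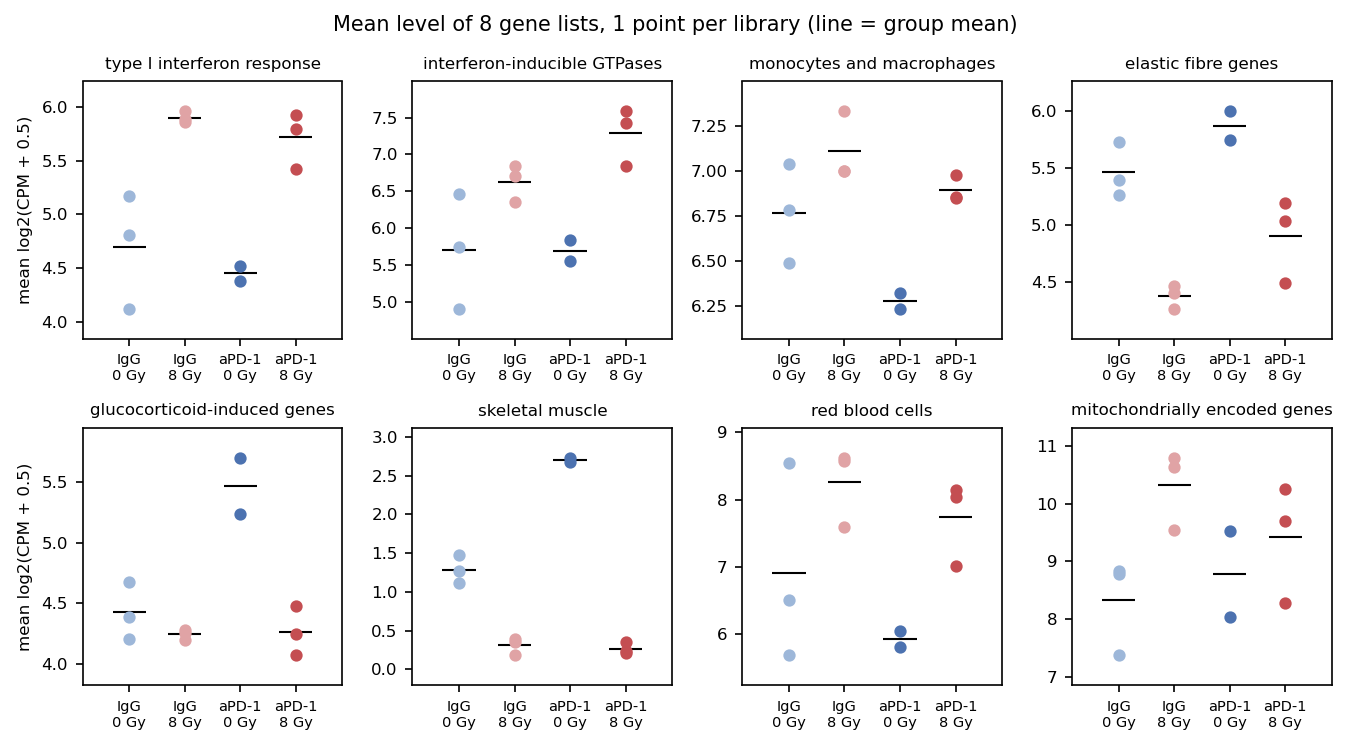
Mean log2(CPM + 0.5) of the tested members of 8 gene lists, with 1 point per library and a line at the group mean, for IgG and anti-PD-1 (aPD-1) at 0 and 8 Gy. In the glucocorticoid and skeletal muscle panels the unirradiated anti-PD-1 libraries (5.24 and 5.70, 2.68 and 2.73) lie above every other library. In the type I interferon panel both arms step up from 0 to 8 Gy without overlap. In the GTPase panel the anti-PD-1 arm does, while 1 IgG library at 0 Gy (6.47) lies above 1 at 8 Gy (6.35).

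Further large falls named by rule were Adamtsl2, a matrix protein that binds fibrillin and latent TGF-beta (27.8 and 42.0 CPM against 1.95, 4.35 and 2.77 CPM, -3.36), Sec14l4 (-3.32), Fam107a (-3.12), the noradrenaline transporter gene Slc6a2 (-2.86) and the dipeptidase gene Dpep1 (-2.84). Atp7b, a copper transporter, fell from 30.3 and 43.4 CPM to 9.81, 9.58 and 11.5 CPM (-1.77 ± 0.20, adjusted p = 0.00104) and passed in every fit that left out 1 library. Without 0 Gy replicate 2 the adjusted p of the other 5 was 0.0849 to 0.243, and without 0 Gy replicate 1 or 8 Gy replicate 1 Adamtsl2 (0.0559 and 0.0790) and Dpep1 (0.0538 and 0.0834) missed the threshold too.

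Glycolysis and hypoxia genes lay higher. Of 22, 21 lay above 0 (43.2% of all genes tested did) and 19 separated the doses upward (17% did). As calls, 2 rose (9.09%), against 0.957% of all genes tested, and the median was 0.59. Hk2, the first enzyme of glycolysis in its inducible form, rose from 48.2 and 53.3 CPM to 109, 102 and 101 CPM (1.03 ± 0.14, adjusted p = 0.00238), with the irradiated libraries close together, and passed in every fit that left out 1 library. Ankrd37, a hypoxia-induced gene, rose by 1.18 and did not pass without 0 Gy replicate 1, 0 Gy replicate 2 or 8 Gy replicate 1 (adjusted p = 0.0567, 0.214 and 0.0834). Vegfa lay below 0 (-0.65). Of 21 immediate early genes 2 rose, Egr2 (1.34) and Atf3 (0.93), and none of 19 targets of the oxidative stress factor NRF2 passed. Egr2 was not called without 0 Gy replicate 2 (0.160), nor Atf3 without 0 Gy replicate 1 (0.0753), 0 Gy replicate 2 (0.202) or 8 Gy replicate 1 (0.0834), all adjusted p.

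Red cell genes were uniformly above 0 without a call. All 7 lay above 0 (43.2% of all genes tested did) with no overlap between doses (17% separated upward), and the median was 1.89. Hba-a1, an alpha globin, stood at 530 and 408 CPM at 0 Gy and at 2317, 2342 and 1177 CPM at 8 Gy (1.99 ± 0.70, limma adjusted p = 0.142). The list was also spread widely at 0 Gy with IgG, with a mean log2 level of 5.68 to 8.55. Mitochondrially encoded genes, 15 of 15 above 0 with a median of 0.64, gave no call either, and their median was -0.12 at the lowest alternative. In these lists, as in the interferon lists, 8 Gy replicate 3 was the lowest irradiated library. The part of blood content and of mitochondrial RNA in the interferon and other results was not tested.

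To see whether the response depended on the antibody, the same dose contrast was taken with IgG, whose libraries are not shared. With IgG 253 genes rose (1.44%) and 1601 fell (9.12%). Of the 168 genes that rose under anti-PD-1, 166 had the same sign with IgG and 74 were called there too, and of the 329 that fell 321 had the same sign and 194 were called. Across genes the 2 sets of log2 fold changes had a Pearson r of 0.67 and a Spearman rho of 0.68, a description only, since genes are not independent. The test of the difference itself called 0 genes in limma, with 598 at an unadjusted p under 0.05 (3.41%) and a smallest adjusted p of 0.161. By that test no gene's response was particular to anti-PD-1, which does not show that the arms respond alike.

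**Figure D4:**
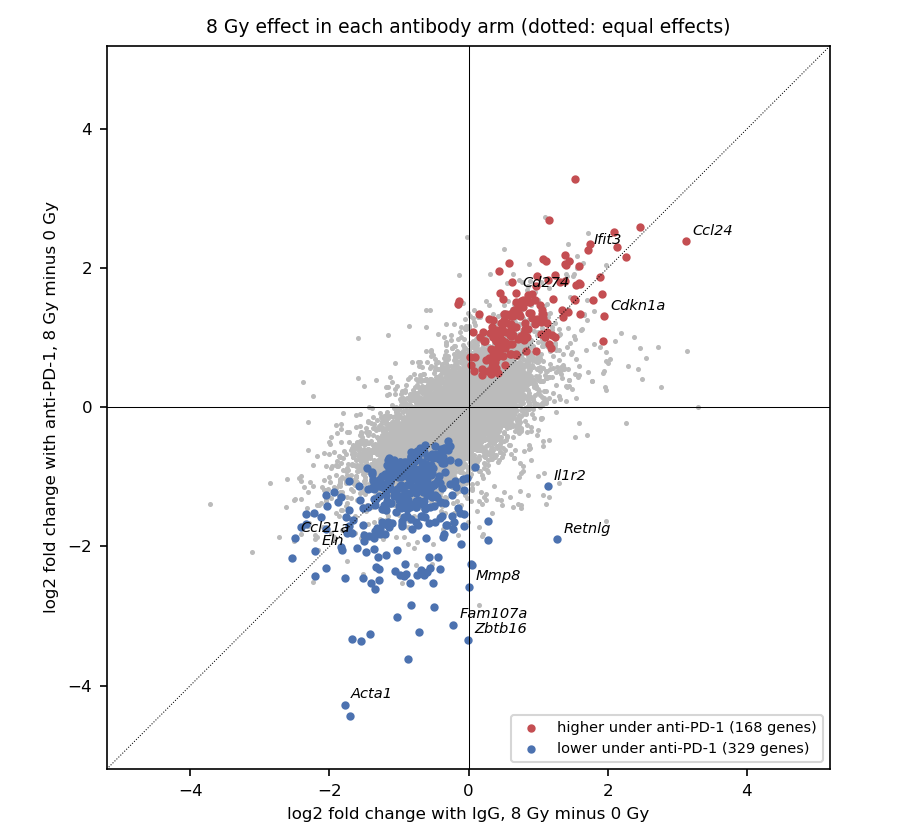
Log2 fold change from 0 to 8 Gy with IgG (x axis) against that with anti-PD-1 (y axis) for the 17546 genes tested; red genes rose and blue genes fell under anti-PD-1, and the dotted line marks equal effects. Nearly all coloured points share a sign in both arms, and Il1r2 and Retnlg lie in the lower right quadrant.

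Values in the 2 arms are set side by side for the main groups. The type I interferon list had a median of 1.24 under anti-PD-1 and 1.16 with IgG, with 18 and 20 members called. The GTPases had 1.62 and 0.92, the skeletal muscle genes -2.34 and -0.88, the glucocorticoid-induced genes -1.14 and -0.14, and the ciliated genes -0.64 and -1.53. Cdkn1a rose by 1.31 under anti-PD-1 and by 1.95 with IgG (difference -0.64 ± 0.25, unadjusted p = 0.0229, adjusted p = 0.997). Cd274 rose by 1.64 and by 0.69 (difference 0.95 ± 0.27, unadjusted p = 0.00299, adjusted p = 0.860). The lowest p of any difference named belonged to Zbtb16, with -3.34 and -0.01 (difference -3.33 ± 0.54, unadjusted p = 2.44e-05, adjusted p = 0.161), followed by Atp2a1 with -2.34 and -0.69 (difference -1.65 ± 0.27, unadjusted p = 2.69e-05, adjusted p = 0.161).

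On the upward side Rab3il1, a guanine exchange factor gene, rose from 14.2 and 14 CPM to 31.2, 28.3 and 27.4 CPM under anti-PD-1 (1.01 ± 0.14, adjusted p = 0.00384), and had a log2 difference of 0.17 with IgG (difference 0.85 ± 0.19, unadjusted p = 0.000552, adjusted p = 0.417). In that gene the unirradiated anti-PD-1 libraries stood below the unirradiated IgG ones, which were at 31.7, 30.1 and 35.3 CPM. The same was true of Cd274, at 27.5 and 32.3 CPM against 54.3, 55.4 and 63.9 CPM, and of Tifab, an inhibitor of TIFA signalling in myeloid cells, at 24.6 and 20.5 CPM against 59.0, 52.7 and 75.3 CPM. At 8 Gy the arms were closer: Cd274 was at 106, 106 and 73.1 CPM with anti-PD-1 and at 87.3, 109 and 85.0 CPM with IgG, and the 2 groups overlapped. Without anti-PD-1 0 Gy replicate 2 the rises of Rab3il1 and Tifab were not called (adjusted p = 0.0771 and 0.0713).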

How the data were processed

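Per the labels' protocols, total RNA of ground tumour-bearing lung was purified on columns and 1 µg of it went into TruSeq libraries. STAR and Partek were used with mm10, per the submitters' processing notes. No version, annotation, counting rule or strand setting is given in the sources used here. A named gene that overlaps another on the opposite strand may therefore hold its reads. Among these are Cdkn1a, Cd274, Tgtp1, Hk2, Acta1, Tnnt3, Atp2a1, Eln, Lox, Fkbp5, Il1r2, Pdcd1lg2, Ccl21a, Ddb2, Csf1r, Cxcl11, Csf2, Prtn3, Ankrd37 and Myh1. The deposited values are CPM for 30095 genes, to which the authors had added 1e-04. Of low values, 60.9 to 63.3% came out as whole reads (tolerance 0.02, under 100 reads), so no count model was used. The floor of 3 reads is 0.0518 to 0.1 CPM and, like every depth limit here, covers counting error only.

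The 17546 genes reaching 1 CPM in 2 or more libraries entered limma 3.58.1 (R 4.3.3) on the log2(CPM + 0.5) scale, with a trended, robust prior variance, all 16 libraries in 1 fit of 6 group means, 10 residual degrees of freedom and Benjamini-Hochberg adjustment at 0.05. Fold changes are on that scale, which understates low genes, and are given ± SE. The procedure was tested on simulated data. The 42 gene lists hold 722 symbols, of which 720 were matched. The members and lists were chosen with earlier results of these data known. Named genes include the 10 largest rises and falls and the 5 lowest p in each direction. These were taken among called genes with informative symbols, groups that did not overlap and a mean log2 level of at least 1. For the difference between arms the 5 lowest p in each direction were taken among informative symbols. Up to 4 of the lowest p in each list and 7 always named genes were added without these conditions. Other list members, and the genes under other observations, were picked after their values were seen. Some genes are not reported here. Promoters were matched by symbol to the RefSeq table, which held 11924 of the genes tested. Alternatives changed the scaling, filter, pseudocount (0.1 and 1), variance model, sample weights, replicate block and libraries in the fit.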

Additional observations from a re-analysis of the deposited data

Results flagged for a closer look

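In 2 genes the call went in opposite directions in the 2 antibody arms, and the difference between arms had an unadjusted p among the lowest. Il1r2, which encodes the decoy receptor for interleukin 1, was at 34.6 and 57.4 CPM at 0 Gy and at 20.7, 19.4 and 20.2 CPM at 8 Gy under anti-PD-1 (log2 fold change -1.13, limma adjusted p = 0.0452), and at 20.1, 19.5 and 13.8 CPM and then 44.5, 37.1 and 36.5 CPM with IgG (1.14, adjusted p = 0.0141). The difference was -2.27 ± 0.37 (unadjusted p = 2.76e-05, adjusted p = 0.161). Retnlg fell by 1.90 under anti-PD-1 (adjusted p = 0.0248) and rose by 1.28 with IgG, from 8.07, 18.3 and 15.9 CPM to 36.7, 34.8 and 28.1 CPM (adjusted p = 0.0387), a difference of -3.17 ± 0.54 (unadjusted p = 4.21e-05, adjusted p = 0.182). Neither difference passed after adjustment, and the fall of Il1r2 was called in none of the 5 fits that left out 1 anti-PD-1 library (adjusted p = 0.0515 without 0 Gy replicate 1 to 0.453 without 0 Gy replicate 2). That of Retnlg was lost without 0 Gy replicate 2 (0.374), 8 Gy replicate 1 (0.0946) or 8 Gy replicate 2 (0.0671). In all, 64 of the 17546 genes tested separated the doses in opposite directions in the 2 arms. Separation alone is common, at 17% upward and 24.4% downward under anti-PD-1, so this count is a description only.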

How the results depend on the processing

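All 497 calls kept their sign in each of 16 alternatives (leaving out IgG libraries was not among them). Since the 2 doses overlapped for none of the 497, the sign could turn only under quantile normalization, equal library medians or the replicate block. In the other alternatives the kept sign adds no support. The count was 306 with the replicate block (100 higher, 206 lower), 2207 with array weights (874 and 1333, with a convergence warning) and 131 in the 5 libraries alone (83 and 48, a share of rises above that of the fit of 16), and lay within 1.5 times of 497 under the other scaling, filter, pseudocount and variance settings. Leaving out 1 library gave 17 to 892, among them 778, 892 and 322 without IgG 0 Gy replicates 2 and 3 and IgG 8 Gy replicate 2, which enter only through the shared spread, and, in the irradiated and unirradiated anti-PD-1 groups, 179 and 17 without 0 Gy replicates 1 and 2 and 80 and 195 without 8 Gy replicates 1 and 2. The replicate numbers pair nothing in the labels, and deviations of same-numbered libraries correlated at -0.11 and 0.21. The difference between arms gave 6 calls with no filter, 1 with the replicate block, 1 with no trend, and 0 to 2 when 1 library was left out (1 without anti-PD-1 0 Gy replicate 1, 2 without IgG 0 Gy replicate 3). Of 69 called named genes 11 passed every fit leaving out 1 library. Named genes were not followed in the fits without an IgG library. Among 183 named genes 8 uncalled ones turned sign. Leaving out 1 library gave, lowest to highest, Ryr2 -1.01 to 0.13, Myl7 -0.70 to 0.047, Cd8b1 -0.10 to 1.08 and Pdcd1 -0.90 to 0.55 (the ends are the fits without 0 Gy replicate 1 or 2), mt-Cytb -0.013 to 1.30 and Mki67 -0.014 to 0.19 (likewise), Dntt -0.23 to 0.30 (without 8 Gy replicates 1 and 3) and Scgb1a1 -1.18 to 0.057 (without 8 Gy replicates 2 and 1). Pdcd1 was 0.09 without 8 Gy replicate 3 and Dntt 0.01 without 0 Gy replicate 1. Array weights gave Dntt 0.12, Scgb1a1 0.024 and Pdcd1 0.18, and Dntt was 0.20 after quantile normalization and 0.043 with equal medians. The causes were not tested. Depth limits levels near 0.1 CPM, such as Acta1 at 8 Gy.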

Other observations

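Beyond the lists, 6 single genes of myeloid cells that rose at 8 Gy under anti-PD-1 are given here, chosen because they rose, so they say nothing of myeloid genes as a group. Cd180, a relative of the toll-like receptors, was at 6.95 and 9.04 CPM at 0 Gy and at 42.5, 36.3 and 21.7 CPM at 8 Gy (1.96 ± 0.35, limma adjusted p = 0.0105). Spi1, the transcription factor PU.1, rose by 0.94, Aif1 by 1.51, the signalling adaptors Tyrobp and Fcer1g by 0.72 and 0.83 and the integrin subunit gene Itgb2 by 0.75. All 6 calls were lost without 0 Gy replicate 1 (adjusted p = 0.0727 to 0.157), 0 Gy replicate 2 (0.114 to 0.319) or 8 Gy replicate 1 (0.0568 to 0.168), and all but that of Cd180 without 8 Gy replicate 2 (0.0833 to 0.104). None of these was called with IgG, where the values ran in the same direction (0.52 for Spi1, 0.44 for Cd180), and the difference between arms did not pass for Cd180 (unadjusted p = 0.00564, adjusted p = 0.997).

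A further 5 genes with roles in splicing were chosen because they fell, and how many such genes did not was not counted. Clk4, a kinase of splicing factors, went from 59.5 and 77.5 CPM to 28.2, 37.5 and 34.4 CPM (-1.02 ± 0.24, adjusted p = 0.0348), Ccnl2 fell by 1.09, Srsf5 by 0.76, Srsf11 by 1.00 and Srrm2 by 0.72. All 5 were called lower with IgG too, but under anti-PD-1 none was called without 0 Gy replicate 2 (adjusted p = 0.309 to 0.416), 8 Gy replicate 1 (0.147 to 0.213) or 8 Gy replicate 2 (0.0639 to 0.0946), and Srrm2 alone was without 0 Gy replicate 1 (the other 4 at 0.0570 to 0.0986). Clk4 was not called without 8 Gy replicate 3 either (0.0516). Long noncoding RNAs made up 11.2% of the genes that fell, 3.57% of those that rose and 5.8% of all tested, and the fallers had a median level of 8.12 CPM against 30.9 CPM for the risers. The listed genes summed to 885905 and 866773 CPM at 0 Gy and to 913725, 910435 and 907531 CPM at 8 Gy. The part of that sum in these falls was not tested.

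Fam107a, Klf15 and Map3k6 were likewise chosen because they fell and give no support to the fall of any list. Fam107a fell from 5.95 and 13.8 CPM to 0.380, 0.853 and 0.626 CPM, Klf15 by 2.49 and Map3k6 by 2.31. With IgG their log2 differences were -0.22, -1.28 and -0.55, and none was called. Without 0 Gy replicate 2 all 3 falls under anti-PD-1 lost their call (adjusted p = 0.0849, 0.351 and 0.0595), and that of Klf15 also without 0 Gy replicate 1 (0.0786), 8 Gy replicate 1 (0.155) or 8 Gy replicate 2 (0.0614). Chosen in the same way, the imprinted genes Peg3, H19 and Rian fell by 2.53, 1.61 and 1.23, and without 0 Gy replicate 2 their adjusted p was 0.160, 0.325 and 0.182. H19 and Rian also missed the threshold without 0 Gy replicate 1 (0.0815 and 0.128) or 8 Gy replicate 1 (0.142 and 0.114), H19 without 8 Gy replicate 2 (0.0815) and Rian without 8 Gy replicate 3 (0.0517). Peg3 was at 7.01 and 23.9 CPM at 0 Gy and at 1.35, 2.32 and 2.00 CPM at 8 Gy. Myh8 and Myl3, genes of developing and slow muscle, were at 9.81 and 10.9 CPM and at 1.94 and 2.07 CPM at 0 Gy and had no reads in the 3 irradiated libraries. Myl3 was tested only through its level in the unirradiated anti-PD-1 libraries.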
